A study of Mus musculus with 6 samples.

Results

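miR-320-3p (mmu-miR-320-3p) and miR-484 (mmu-miR-484) are 2 of the 298 miRNAs found in AGO2 CLASH hybrids of P19 cells, and they were chosen because their hairpins reach Dicer without the Microprocessor. They supplied 135 of 15680 hybrid reads, in 133 of 15159 entries, an entry being a distinct hybrid sequence of a library. miR-320-3p had 82 reads on 66 target genes and miR-484 had 53 reads on 37 target genes. In CLASH, after UV cross-linking, a miRNA and the mRNA fragment bound with it in AGO2 are ligated and read as a single molecule, so each hybrid names a miRNA and a target. P19 is a mouse embryonic carcinoma line. WT libraries came from Dicer (+/+) cells and HM libraries from Dicer (HM/-) cells, which carry a hotspot change in the RNase IIIb domain on one allele and a loss-of-function change on the other. The HM line is a single clone, so clone and genotype cannot be told apart. There were 3 WT and 3 HM libraries, labelled as biological replicates.

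Most primary miRNA transcripts are cut in the nucleus by the Microprocessor (Drosha with Dgcr8), and the released hairpin is then cut by Dicer. The hairpins of miR-320 and miR-484 arise by transcription as short capped RNAs and reach Dicer without the first cut. Within Dicer, RNase IIIb cuts the 5p arm of the hairpin and RNase IIIa the 3p arm. The start of the miRNA sets its seed, the stretch near the 5′ end by which it pairs with targets. miR-320-3p has an arm in its name and miR-484 has none.

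The position of miR-484 in its hairpin was read from RefSeq. The mature miRNA is shown first because its place in the hairpin and its seed bear on the results. Capitals mark the seed, bases 2 to 8, written 5′ to 3′.
miR-484: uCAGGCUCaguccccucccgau
The hairpin is 67 nt long and lies on the plus strand of mouse GRCm38.p6, chr16:14159626-14159692. The mature strand covers chr16:14159630-14159651, which is hairpin bases 5 to 26, and 41 nt of the hairpin follow it. The miRNA thus lies in the 5′ part of its hairpin. A site for the seed was taken as a 6-nt match to bases 2 to 7, AGCCTG for miR-484 and AGCTTT for miR-320-3p, and the matches to bases 2 to 8 were GAGCCTG and CAGCTTT. The seeds differ, and the members therefore form 2 seed groups.

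The target fragments below are shown because they recur between libraries or carry the pairing described later. Each is printed 5′ to 3′ as a stretch of at most 30 bases of a fragment that the authors mapped to a 3′ UTR, with capitals wherever 5 or more bases in a row are complementary to the miRNA part of the same hybrid. The first 5 were ligated to miR-320-3p.
Srsf1, HM library 2: attgttCCTCTCttcctCCCAGCTTTatat
Emb, HM library 2: gatGCCCTCAACgtgcacagaagtAGCTTT
Enc1, WT library 1: atgctgtacctcattCAGCTTTTgatt
Igf2bp3, HM library 2: tatgCTCTCtgaaatatatgaca
Slc38a2, HM library 2: ttgtaaatgtCCCAGCTgta
The others were ligated to miR-484.
Ei24, HM library 3: acgagtgGGGGAaatgGAGCCTGAagag
Gigyf1, HM library 2: cttgggggcccaTGAGCCTGgagaggcc
Mllt4, WT library 1: tttgtgggggcGAGCCTGAagagg
Tnrc6c, HM library 3: tggggtggGGGGAGacttgaAGCCTatt
Il6st, HM library 3: gatgttGGAGGGGttggaagctctgtag
Pdzd8, WT library 3: tggatGGAGGGGACaagacgtatctgaagt
In Srsf1 and Ei24 the capitals fall in 2 separate runs, one facing the seed and one facing bases nearer the 3′ end of the miRNA. In Il6st and Pdzd8 only the second kind of run is present.

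Library totals ran from 1621 to 2331 reads in WT and from 1661 to 5341 in HM. Where a library showed no read, up to 3 were still possible by counting error, or 0.0562% to 0.185% of its hybrids. Such limits, like the intervals given for shares, reflect counting alone, and reads were not corrected for PCR duplicates in any way stated. The 5p strands made up 54.0% ± 2.24 (SD, n = 3) of the hybrids with an arm in WT and 3.91% ± 0.292 (SD, n = 3) in HM. A share of all hybrids and a share of 3p hybrids therefore run on different scales between the genotypes, and the members are given on both. Libraries shared at most 5.02% of their whole sequences, 1 of them a member hybrid, of Igf2bp3 in WT library 1 and HM library 1. The HM libraries did not differ in miRNA makeup beyond sampling noise (chi-square with simulated p between 0.119 and 0.380), nor did WT libraries 1 and 2 (p = 0.332). In the same simulated permutation of reads, WT library 3 differed from WT library 1 (p = 0.0123) and from WT library 2 (p = 4e-05). Without it the log2 fold changes per 3p hybrid given below would be -0.76 for miR-320-3p and 0.39 for miR-484. Each library was counted as a sample of its own because of its label as a biological replicate. Low sharing of sequences at this depth cannot show that the cultures were separate. Embryonic identity was visible in the miR-302 cluster with miR-367, which held 43.2% of all reads, and in the miR-290 to miR-295 cluster, which held 6.77%. miR-122, miR-1a, miR-124, miR-142a and miR-223, which mark other tissues, had 0 reads.

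Both members kept hybrids in HM cells. miR-320-3p had 10, 10 and 7 reads in the WT libraries, in the order of their numbers, and 6, 33 and 16 in the HM libraries. miR-484 had 5, 2 and 3 reads in WT and 5, 22 and 16 reads in HM. Every library thus held both miRNAs, with the most reads in the deepest library, HM library 2. By reads, miR-320-3p ranked 33 among the miRNAs of WT libraries and 25 among those of HM libraries. miR-484 ranked 54 in WT, tied with others, and 29 in HM.

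Per 3p hybrid, miR-320-3p was lower in HM without passing the test across miRNAs. Its share was 1.09%, 0.917% and 0.999% of 3p hybrids in the WT libraries and 0.379%, 0.645% and 0.599% in the HM libraries. All HM values lay below all WT values, as the 2 genotypes also did not overlap for 69.1% of the 94 miRNAs tested. The means were 1.00% ± 0.0876 in WT and 0.541% ± 0.143 in HM (SD, n = 3 each; two-sided exact permutation test, p = 0.1, the smallest that 3 against 3 can give). In edgeR's quasi-likelihood test with 3p totals as library size, the log2 fold change of HM over WT was -0.78 with SE 0.39 and an adjusted p of 0.0755. On the scale of all hybrids the direction turned: the shares were 0.518%, 0.429% and 0.432% in WT and 0.361%, 0.618% and 0.572% in HM, and the genotypes overlapped. The edgeR log2 fold change on that scale was 0.27 with SE 0.38 (adjusted p = 0.541).

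Per hybrid, miR-484 was higher in HM. Its share of all hybrids was 0.259%, 0.0858% and 0.185% in the WT libraries and 0.301%, 0.412% and 0.572% in the HM libraries. The lowest HM value lay just above the highest WT value, while the exact 95% interval of each library overlapped that of others. Means were 0.177% ± 0.0870 in WT and 0.428% ± 0.136 in HM (SD, n = 3 each; two-sided exact permutation test, p = 0.1). The genotypes did not overlap for 62.8% of miRNAs on this scale. With totals of all hybrids, edgeR gave miR-484 a log2 fold change of 1.34 with SE 0.50 (adjusted p = 0.0133), where 34.0% of the 94 miRNAs passed as higher and 33.0% as lower. Of the 58 tested 3p strands, 30 passed as higher on this scale and 0 as lower.

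The difference for miR-484 was not present per 3p hybrid. Its share of 3p hybrids was 0.546%, 0.183% and 0.428% in WT and 0.315%, 0.430% and 0.599% in HM, which overlap. The edgeR log2 fold change on this scale was 0.31 with SE 0.52 (adjusted p = 0.603), and 59.6% of miRNAs passed in either direction, 16.0% as higher and 43.6% as lower. Without WT library 2, which held 2 miR-484 reads, the value was -0.10. Changing from 3p totals to totals of all hybrids moved the median log2 fold change over the 94 miRNAs from -0.72 to 0.33. Relative to these medians, which take in the 5p strands, miR-320-3p was close to the median on each scale and miR-484 was above it. The median over 3p strands alone was 0.20 with 3p totals and 1.20 with totals of all hybrids. Relative to that, miR-320-3p was lower on each scale and miR-484 was close. Over all alternatives run, adjusted p in edgeR or DESeq2 ranged from 2.75e-23 to 0.541 for miR-320-3p and from 2.91e-22 to 0.909 for miR-484, the lowest values coming from 5p totals.

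**Figure D1:**
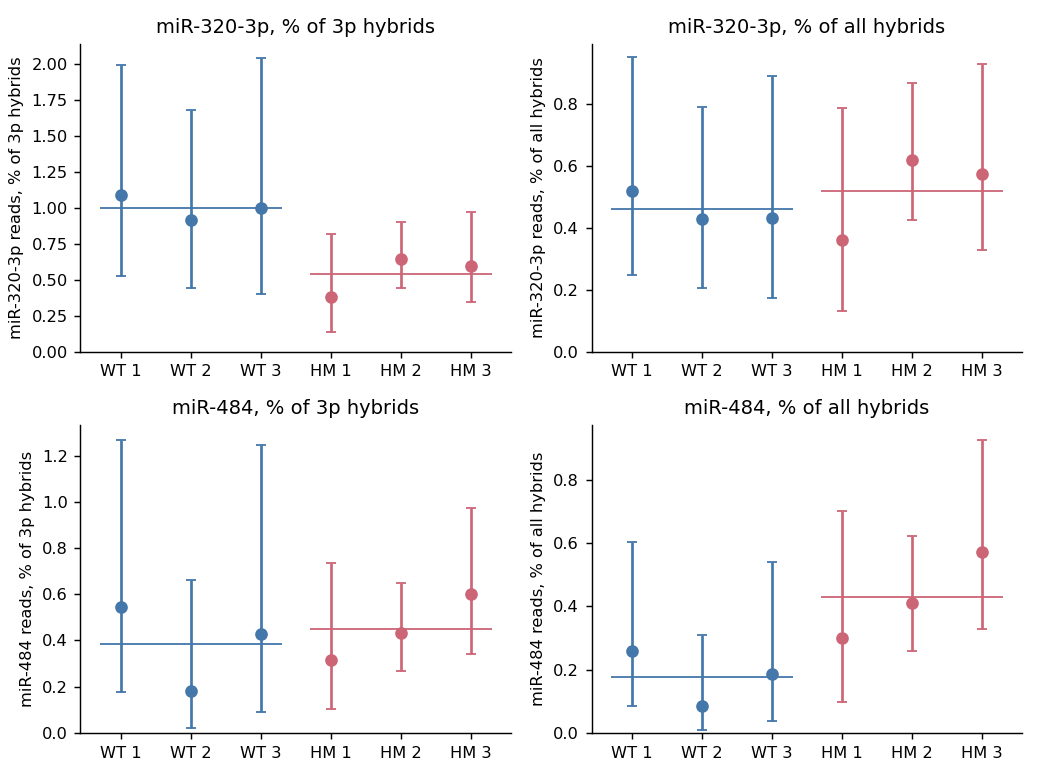
Share of miR-320-3p (top) and miR-484 (bottom) in each library as a percentage of 3p hybrids (left) and of all hybrids (right); points are libraries, bars are exact 95% binomial intervals and lines are genotype means. miR-320-3p lies lower in HM only in the left panel, and miR-484 lies higher in HM without overlap only in the right panel.

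miR-92a-3p, a conventional 3p guide with many more reads, gives a comparison on the same scales. It made up 5.51% ± 1.06 of 3p hybrids in WT and 4.11% ± 0.388 in HM (SD, n = 3 each). Its edgeR log2 fold change was -0.40 with 3p totals (adjusted p = 0.0355) and 0.65 with totals of all hybrids (adjusted p = 1.21e-04). The first of these calls was lost in edgeR with a replicate block (adjusted p = 0.126), in DESeq2 (0.109), with no minimum of reads (0.0664) and without WT library 1 (0.291), WT library 2 (0.0793) or HM library 1 (0.0923). With TMM the value was 0.03 over all tested miRNAs and 0.01 over 3p-miRNAs. The sign thus turned with the scale, as that of miR-320-3p did between these totals.

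Set against 5p hybrids, miR-484 was higher in HM. As 5p strands made up 54.0% of hybrids with an arm in WT and 3.91% in HM, any strand that kept its hybrids rises on this scale. The rise therefore does not single out miR-484. There were 0.498, 0.162 and 0.329 miR-484 reads per 100 reads of 5p hybrids in the WT libraries, and 7.14, 11.3 and 15.0 in the HM libraries. Every HM value was above every WT value. With the total of 5p hybrids as library size, a setting chosen after the position of the miRNA was seen, the edgeR log2 fold change of miR-484 was 5.09 with SE 0.48 (adjusted p = 2.91e-22). On this scale 83.0% of the 94 miRNAs passed, 68.1% as higher and 14.9% as lower. The higher ones were 58 of 58 tested 3p strands, 4 of 34 tested 5p strands and both miRNAs without an arm. miR-320-3p rose by a log2 fold change of 4.05 with SE 0.38 (adjusted p = 2.75e-23) on the same scale.

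The fitted log2 fold change of miR-484 was above that of all 34 tested 5p strands with each of the 5 library sizes tried. It was also above that of 31 of 58 tested 3p strands with 3p totals, a place in the middle of the 3p strands. Of the 5p strands, 32 of 34 were lower in HM past the threshold with 3p totals. miR-320-3p was above 33 of 34 tested 5p strands and above 10 of 58 tested 3p strands, itself included in the latter total. Fold changes of 5p strands that were nearly absent from HM depend on the prior count of the fit, so their sizes are not given.

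**Figure D2:**
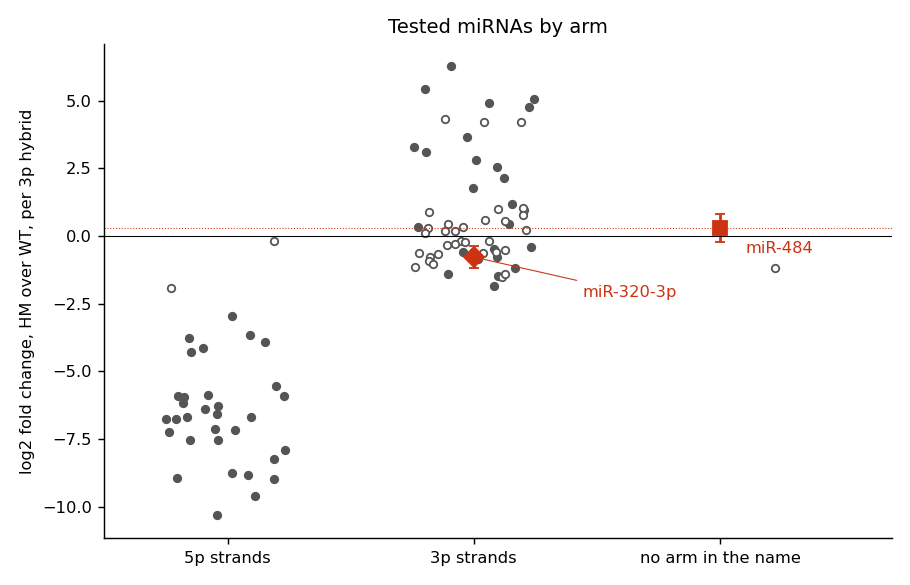
Log2 fold change of HM over WT (y axis, edgeR with 3p totals) for the 94 tested miRNAs, split by the arm in the name; filled points passed an adjusted p of 0.05, open points did not, and the members are in red with the SE. The dotted line at miR-484 (0.31) passes above all 34 points of 5p strands.

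The balance between the members does not depend on a library total. The log2 ratio of miR-320-3p to miR-484 reads, with 0.5 reads added to each, was 0.93, 2.07 and 1.10 in the WT libraries and 0.24, 0.57 and 0.00 in the HM libraries. All HM ratios were below all WT ratios. Means were 1.37 ± 0.614 in WT and 0.27 ± 0.288 in HM (SD, n = 3 each), a difference of -1.10 at p = 0.1 in the two-sided exact permutation test. The smallest possible p was reached, and the difference stayed between -1.31 and -0.74 when any library was left out. In the same exact test p was then 0.1 or 0.2, the latter without WT library 2, HM library 1 or HM library 3. How often the ratio of other miRNA pairs separates the genotypes was not counted. Single miRNAs did not overlap in 69.1% of cases per 3p hybrid and in 62.8% per hybrid.

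Nearly all miR-320-3p reads with an unusual start came from HM libraries. For this miRNA the commonest start among the hybrids served as reference. WT libraries held 1 read with another start, in WT library 1, of 27 reads (3.70%, exact 95% interval 0.0937% to 19.0%). HM libraries held 11 of 55 (exact 95% interval 10.4% to 33.0%), and all of them began downstream of the reference. Starts shifted by 1 nt gave 1 read in WT library 1, 2 in HM library 2 and 1 in HM library 3. Starts shifted by 2 nt gave 5 reads in HM library 2 and 3 in HM library 3, and 0 reads in HM library 1, where all 6 reads had the reference start.

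The intervals of the 2 genotypes overlap. Matches to the first 8 nt of the reference were found in 9 of 10, 9 of 10 and 7 of 7 reads of the WT libraries and in 6 of 6, 26 of 33 and 12 of 16 reads of the HM libraries, an undetermined base counting as no match. The means differed by -8.74 percentage points (two-sided exact permutation test, p = 0.4). With 1 library left out the difference ranged from -3.94 points without HM library 3 to -16.4 points without HM library 1. Among 17 other 3p strands with at least 20 reads in each genotype, the median share away from the commonest start was 9.09% in WT and 5.56% in HM. Their median difference within a strand was 0.23 percentage points, so these 2 medians do not show a general fall. With miR-320-3p included, the share was higher in HM for 10 of 18 strands. The rise from WT to HM in percentage points was larger than that of miR-320-3p (16.2, entries with an undetermined base left out) for 2 strands, miR-291a-3p and miR-19b-3p. Next below it was miR-302c-3p with 12.5 points.

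A shift of 2 nt moves the seed. The 6-nt match of the shifted seed is CCAGCT. It was in 4 of the 8 fragments ligated to the shifted form, on Abl2, Mms22l and Slc38a2, the last in HM libraries 2 and 3. The match was in 5 of the 70 fragments ligated to the reference form. Conversely, AGCTTT was in 2 of 8 fragments of the shifted form and in 37 of 70 of the reference form. The Slc38a2 fragment printed above shows the match of the shifted seed without AGCTTT. Slc38a2 encodes a neutral amino acid transporter and Abl2 a tyrosine kinase.

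miR-484 kept its start in nearly all hybrids. The RefSeq start was found in 9 of 10 WT reads and 40 of 43 HM reads. The 4 exceptions were shifted by 1 nt downstream in 2 reads of HM library 2, by 1 nt upstream in 1 read of HM library 3 and by 2 nt upstream in 1 read of WT library 2. Per library these were 5 of 5, 1 of 2 and 3 of 3 reads in WT and 5 of 5, 20 of 22 and 15 of 16 in HM. By matches to the first 8 nt, the shares per library differed by 10.0 percentage points (two-sided exact permutation test, p = 1). The 3′ end was complete, at base 22 of the reference, in 7 of 10 WT and 26 of 43 HM reads of miR-484 and in 24 of 27 WT and 42 of 55 HM reads of miR-320-3p.

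**Figure D3:**
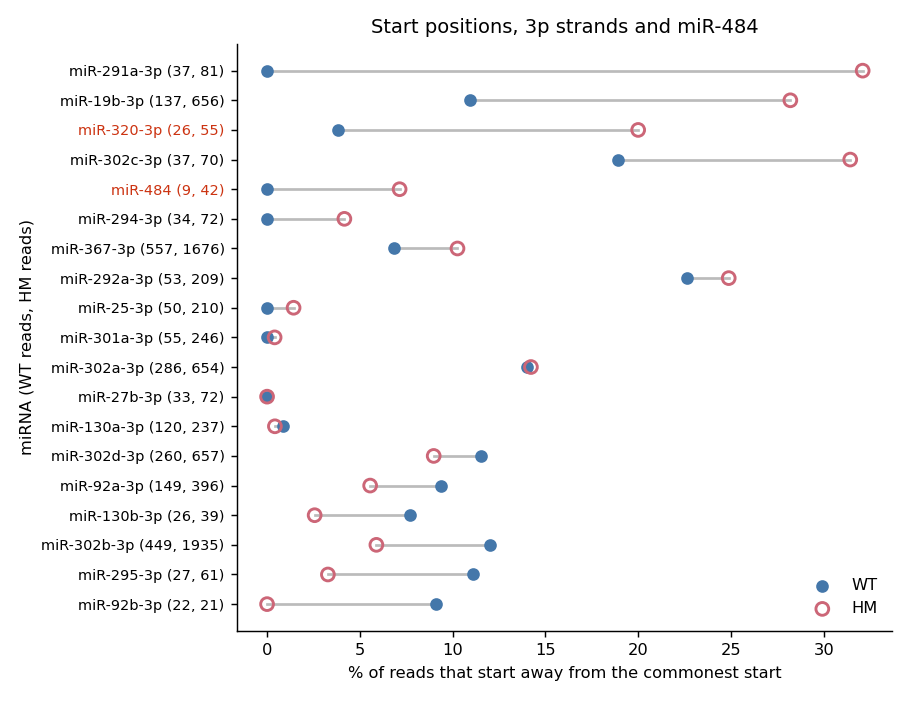
Percentage of reads that start away from the commonest start (x axis) for miR-320-3p, miR-484 and the other 3p strands with at least 20 reads in each genotype, with WT as filled and HM as open points and read numbers beside the names; entries with an undetermined base in the first 8 nt are left out. miR-320-3p moves from 1 of 26 to 11 of 55 reads, behind miR-291a-3p and miR-19b-3p.

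Target fragments of miR-320-3p carried its seed site more often than fragments of other miRNAs did. The 6-nt site was in 4 of 10, 6 of 10 and 3 of 7 reads of the WT libraries and in 1 of 6, 18 of 33 and 8 of 16 reads of the HM libraries. In fragments of other miRNAs the same site was in 0.539% to 1.20% of the reads of a library. The share was higher in own fragments in 6 of 6 libraries, by 43.1 percentage points on average (SD 15.2; two-sided exact sign-flip permutation test, p = 0.03125, the smallest that 6 libraries can give). With fragments cut to their first 20 nt the difference was 20.1 points (p = 0.0625 in the same exact test). The authors kept only hybrids whose gene TargetScan predicts as a target, a filter that uses seed sites in the whole 3′ UTR. That filter favours own sites in this comparison, and its part in the difference was not tested. Between genotypes the share was 47.6% ± 10.8 in WT and 40.4% ± 20.7 in HM (SD, n = 3 each; two-sided exact permutation test, p = 0.8).

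For miR-484, 21 of the 23 reads with the seed site were HM reads, as were 43 of all its 53 reads. The site was in 2 of 5, 0 of 2 and 0 of 3 reads of the WT libraries and in 3 of 5, 10 of 22 and 8 of 16 reads of the HM libraries. The mean share was 13.3% ± 23.1 in WT and 51.8% ± 7.44 in HM (SD, n = 3 each), and all HM shares were above all WT shares (p = 0.1 by exact permutation, two-sided, the lowest value within reach). How many other miRNAs separate the genotypes by their own seed site was not counted. Pooled over libraries, 2 of 10 WT reads (exact 95% interval 2.52% to 55.6%) and 21 of 43 HM reads (33.3% to 64.5%) held the site, intervals that overlap. By target gene the site was found on 2 of 10 genes in WT and on 12 of 30 in HM. Against fragments of other miRNAs in the same library, where 0.338% to 1.29% of reads held the site, the share was higher in 4 of 6 libraries (difference 31.8 points, SD 26.3; two-sided exact sign-flip permutation test, p = 0.125). In fragments cut to their first 20 nt the difference was 13.6 points (p = 0.125 in the same exact test). The 2 exceptions are the WT libraries with 2 and 3 miR-484 reads. The TargetScan filter named above favours own sites for both members, and its part in the excess was not tested.

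The full 7-nt match prevailed among miR-484 sites. Of its 53 reads, 21 held the match to bases 2 to 8, 11 of them followed by an A, 2 held the 6-nt match only, 3 the offset match to bases 3 to 8 and 27 none of these. miR-320-3p had 25 of 82 reads with the 7-nt match, 9 of them followed by an A, 15 with the 6-nt match only, 3 with the offset match and 39 with none. In both miRNAs about as many reads lacked a seed match as held one. A fragment without a match can end before a site. Median fragment length was 23 nt for miR-320-3p and 29.5 nt for miR-484. On Igf2bp3, fragments of 22 or 23 nt had no match and the 36-nt fragment of the same place held the 7-nt match.

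Pairing at bases 13 to 17 was found in a larger share of reads of miR-484 than of miR-320-3p. For each 5-nt window along the miRNA, the share of own fragments holding its complement was counted. For miR-484 the share was 58.5% of 53 reads at bases 3 to 7, 1.89% at bases 9 to 13 and 43.4% at bases 13 to 17, against 2.08%, 1.65% and 3.40% of reads of other miRNAs. By genotype, the complement of bases 3 to 7 was in 3 WT and 28 HM reads. That of bases 13 to 17 was in 7 WT and 16 HM reads, so the WT maximum lay outside the seed. Windows beginning at bases 12, 13 and 14 were more frequent in own fragments in 6 of 6 libraries. The window at bases 13 to 17 pairs with GAGGG, which is visible in the printed fragments of Pdzd8 and Il6st. miR-320-3p had 52.4% of 82 reads at bases 3 to 7, 1.22% at bases 9 to 13 and 17.1% at bases 13 to 17, against 2.03%, 0.502% and 1.40% in fragments of other miRNAs. Both profiles fell in the centre of the miRNA, and over all reads the second maximum was lower for miR-320-3p. Relative to fragments of other miRNAs, however, the members were alike at bases 13 to 17. The ratio of the own share to the other share was 12.8 for miR-484 and 12.2 for miR-320-3p. In both members the own share was higher in 6 of 6 libraries at this window. Other miRNAs were not profiled.

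Seed matches and 3′ pairing were often on different fragments of miR-484. A complement to at least 1 window of the 3′ part, from base 12 on, was found in 25 of 30 reads without the seed site (83.3%) and in 10 of 23 reads with it (43.5%). Only 5 of 53 reads had neither. For miR-320-3p the 3′ windows were found in 18 of 42 reads without the seed site (42.9%) and in 14 of 40 reads with it (35.0%), and 24 of 82 reads had neither. In fragments of other miRNAs a 3′ window of miR-484 occurred in 9.16% of reads and one of miR-320-3p in 7.10%. These are counts over reads that share libraries and, in part, target sites, and they were not tested. Short fragments can also end before a site of either kind.

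**Figure D4:**
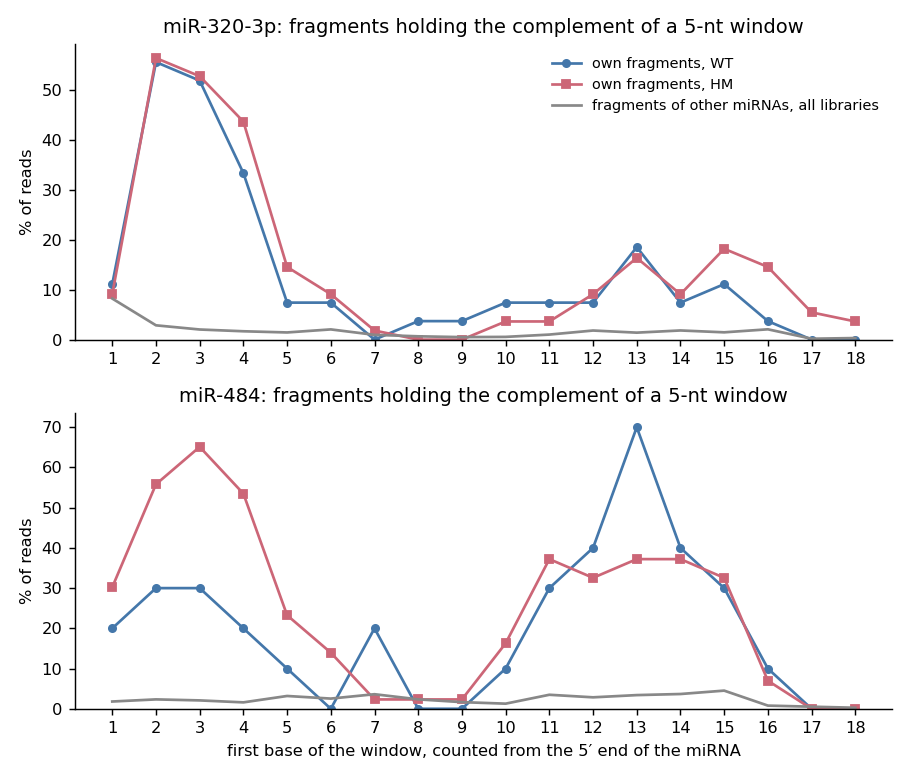
Percentage of reads (y axis) whose target fragment holds the perfect complement of a 5-nt window of miR-320-3p (top) or miR-484 (bottom), by the first base of the window (x axis), in own fragments of WT and HM and in fragments of other miRNAs. miR-320-3p has its maximum over the seed in both genotypes, and miR-484 has it there in HM only. The window of miR-484 at bases 13 to 17 includes 7 of its 10 WT reads, its WT maximum, and 16 of its 43 HM reads.

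The fragments differed in base content and in predicted pairing energy. Fragments of miR-484 had a mean G content of 43.5% against 22.6% in fragments of other miRNAs, and a median length of 29.5 nt against 24 nt. Their median duplex energy with miR-484, computed by RNAduplex, was -25.8 kcal/mol, compared with -7.00 kcal/mol for fragments of other miRNAs placed against the same miRNA. In the 6 libraries the median over own fragments lay between -27.0 and -18.0 kcal/mol and that over other fragments between -7.40 and -6.30 kcal/mol, with no overlap. Fragments of miR-320-3p had a mean C content of 24.5% against 18.8% and a median energy of -14.3 against -9.00 kcal/mol, with library medians between -15.4 and -12.5 and between -9.30 and -8.70 kcal/mol. Energy follows base content and fragment length, and their part in the difference was not tested.

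The targets were mostly seen in single reads. Of 66 miR-320-3p targets, 56 had 1 read, and 8 recurred in at least 2 libraries. Of 37 miR-484 targets, 30 had 1 read and 7 recurred in at least 2 libraries. WT reads fell on 24 genes and HM reads on 46 for miR-320-3p, 4 genes being common to both genotypes; for miR-484 the numbers were 10, 30 and 3. Other miRNAs also bound 52 of the 66 genes (78.8%) and 25 of the 37 (67.6%), where 52.7% of all 3200 target genes had more than 1 miRNA. Genes with more reads have more chance to be seen with several miRNAs.

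The most frequent miR-320-3p target was Igf2bp3, which encodes an RNA-binding protein. It gave 1 read in WT library 1, 2 in HM library 1 and 2 in HM library 2, and no other miRNA was found on it. Of its 5 fragments, 4 had no seed match and 1, in HM library 1, extended to a 7-nt match. Emb, which encodes embigin, a partner of monocarboxylate transporters, gave 1 read each in WT library 2, HM library 2 and HM library 3. Enc1, a kelch protein gene, gave 1 read each in WT libraries 1 and 3 and HM library 1. Most of its 44 reads belonged to miR-19b-3p, which had 33. Srsf1, which encodes a splicing factor, gave 2 reads in WT library 1 and 1 in HM library 2, all with the 7-nt match and the following A. These 4 genes were the only ones bound by miR-320-3p in both genotypes. For Igf2bp3 this rests on 1 WT read, whose whole hybrid sequence was also found in HM library 1.

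The other miR-320-3p targets with 2 reads came from 1 genotype each. Lifr, the LIF receptor, had a read in HM libraries 1 and 3, out of 135 reads of 23 miRNAs on this gene. Nufip2, Pgap1, an enzyme of GPI anchor remodelling, and Slc38a2 had a read each in HM libraries 2 and 3. Dck, deoxycytidine kinase, had 2 reads in HM library 2 and no other miRNA. Epb41l5 had 2 reads in WT library 3. Abl2 and Ak4, a mitochondrial adenylate kinase, followed by symbol with 1 read each in HM library 2.

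miR-484 had 2 targets with 5 reads. Mllt4, which encodes the junction protein afadin, gave 1 read in WT library 1, 1 in HM library 1, 2 in HM library 2 and 1 in HM library 3, which were 5 of the 6 reads of this gene. Gigyf1, whose product takes part in translational repression, gave 1, 2 and 2 reads in HM libraries 1 to 3 and 0 in every WT library. All miRNAs together had 0, 3 and 1 reads on Gigyf1 in WT and 11, 19 and 7 in HM. Ei24, an autophagy gene, gave 2 reads in HM library 2 and 1 in HM library 3, all with the 7-nt match and the following A. Gadd45a, a stress-induced growth arrest gene, had a read in WT library 1 and HM library 2, and Pdzd8, which encodes a lipid transfer protein of the endoplasmic reticulum, in WT library 3 and HM library 2. The remaining targets that the ranking named had 1 read each: Agpat1 in HM library 1, Ap2b1 and Atad1 in HM library 2, Appbp2 in HM library 3 and Ccnjl in WT library 3.

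Il6st was the only gene bound by both members. It encodes gp130, the signalling subunit that pairs with the LIF receptor. miR-484 gave 1 read in HM library 1 and 3 in HM library 3, the latter from a single entry, and miR-320-3p gave 1 read in HM library 3. No WT read of either member fell on Il6st. All miRNAs together had 4, 4 and 2 reads on it in WT and 14, 18 and 14 in HM, with miR-302b-3p in the lead at 25 of 56 reads.

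**Figure D5:**
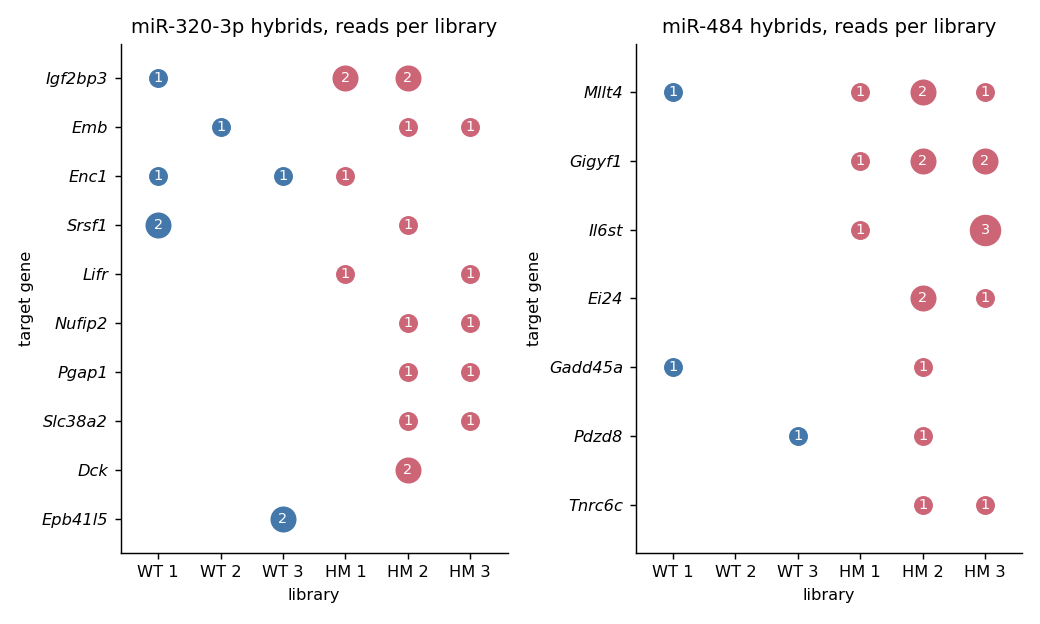
Reads of miR-320-3p (left) and miR-484 (right) on every target gene with at least 2 member reads (y axis), by library (x axis); the number in a point is the read count and larger points hold more reads. Igf2bp3, Emb, Enc1 and Srsf1 appear in both genotypes for miR-320-3p, and Mllt4, Gadd45a and Pdzd8 for miR-484.

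No hybrid of a member with a single gene could be called changed. At the minimum of 10 reads 140 miRNA-target pairs were tested and 15.7% passed, with no member pair among those tested. At a minimum of 5 reads 13.9% of 481 pairs passed in edgeR's test. The 3 member pairs tested there were Igf2bp3 with miR-320-3p (log2 fold change 0.19, SE 1.62, adjusted p = 0.947), Mllt4 with miR-484 (0.18, SE 1.62, adjusted p = 0.947) and Gigyf1 with miR-484, whose WT libraries were all at 0 (adjusted p = 0.409). None of the 3 had an unadjusted p under 0.05 in this test. In simulated data, 20.8% of pairs changed 4-fold were recovered among 140 tested pairs. The simulated pairs were modelled on those with at least 10 reads, so this share does not cover the member pairs, which had fewer.

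Of the silencing machinery genes, 14 of which had hybrids in the table, Tnrc6c was bound by miR-484, with a read each in HM libraries 2 and 3, and none by miR-320-3p. Tnrc6c encodes a GW182 protein, the partner through which Argonaute recruits deadenylases. Its 27 reads over all miRNAs were led by miR-302b-3p with 7. Genes of mitochondrial dynamics (8 in the table) and of glycolysis (6) had no read of either member. Nor had any of the 30 genes with the prefixes Zfp, Zbtb, Zscan, Zkscan or Zfhx or the 52 with prefixes of chromatin regulators. Znf451 and Znf462, zinc finger genes under another prefix that were noticed afterwards, had 1 read of miR-320-3p in WT library 2 and 1 read of miR-484 in HM library 2. Their current mouse symbols are Zfp451 and Zfp462. The lack of member reads under the Zfp prefix thus depends on the names as deposited.

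The other gene groups were counted by symbol prefix alone, which misses some genes and takes in others, and they held few targets of the members. Symbols with cell cycle prefixes (Ccn, Cdk, Cdc, E2f, Plk, Aurk) made up 1.69% of all target genes, and miR-320-3p had 3 of them (E2f1, E2f3 and Plk3) and miR-484 had 2 (Ccnjl and Cdc37l1). Cdc37l1 encodes a relative of an Hsp90 co-chaperone. E2f1 and E2f3 are transcription factors of the transition into S phase. Symbols with membrane traffic prefixes such as Rab, Arf and Sec, 2.66% of all target genes, gave Arf1, Rab14 and Sec63 for miR-320-3p and none for miR-484, whose target Ap2b1, a subunit gene of the clathrin adaptor AP-2, has no such prefix. Solute carriers gave Slc38a2 and Slc25a36 for miR-320-3p. The ubiquitin group gave Ube3c for miR-320-3p and Fbxl19 for miR-484, and developmental signalling gave the BMP receptor gene Bmpr1a for miR-320-3p. Apart from Slc38a2 and the cases above, each of these genes had 1 member read. With groups this small, no difference from the rest of the table can be read from the counts.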

How the data were processed

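Per the deposited table, values were counts of reads per distinct hybrid sequence of a library, not normalized. The authors named the miRNA part with QuagmiR, aligned the target part to mouse 3′ UTRs with Bowtie2 and kept interactions predicted by TargetScan, so that fragments from other regions and unpredicted targets are absent; the versions of QuagmiR and Bowtie2, the build and duplicate handling are not given in the sources used here. The submitters' processing notes list Bowtie.

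The miRNA part was the hybrid sequence before its target fragment. miR-484 starts were set against RefSeq and those of miR-320-3p against the commonest start. Reads were summed per miRNA and per pair, and features with at least 10 reads were tested with edgeR 4.0.16 (glmQLFit, R 4.3.3), with Benjamini-Hochberg adjustment at 0.05 and 3p totals as library size. DESeq2 1.42.0, other totals, TMM, other minimums, entries counted once, a replicate block and leaving out each library were alternatives. Shares were compared by exact permutation tests (Python 3.11.15, numpy 2.4.6, pandas 2.3.3), exact 95% intervals came from scipy 1.17.1, energies from RNAduplex (ViennaRNA 2.7.2) and plots from matplotlib 3.10.9. Library totals of 1621 to 5341 reads limit precision. Scripts were tested on simulated data: of 24 miRNAs changed 4-fold among 94, 16 were recovered (66.7%) with 0 false calls. Named targets were the 12 genes with most reads per member (ties by number of libraries, then symbol), genes bound by both members, member pairs above the minimum and members of the gene lists; other genes (those with shifted starts) were named after their values were seen. The members, lists and tests were chosen with earlier results of these data known. Of the 102 target genes, all but 1 matched the RefSeq gene table as a symbol or synonym; names are used as deposited.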

Additional observations from a re-analysis of the deposited data

How the results depend on the processing

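Directions depended most on the library total. With totals of all hybrids the log2 fold change became 0.27 for miR-320-3p (share difference 0.0573 percentage points) and 1.34 for miR-484, and with 5p totals, added after seeing the data, 4.05 and 5.09. TMM over all tested miRNAs or over 3p-miRNAs gave -0.35 and -0.37 for miR-320-3p (edgeR, adjusted p = 0.445 and 0.416) and 0.73 and 0.71 for miR-484 (0.227 and 0.255). Leaving out 1 library gave -0.95 to -0.67 for miR-320-3p and -0.10 to 0.70 for miR-484, negative without WT library 2. The seed-site excess of miR-320-3p was 40.0 to 48.6 points with 5 libraries, where an exact p cannot go under 0.0625, and 20.1 points in fragments cut to 20 nt. Its seed-site difference between genotypes ranged from -14.3 to 4.65 points, positive without HM library 1. The start difference of miR-484 was -5.26 points without undetermined bases and -6.63 to 18.4 points with 1 library left out, negative without WT library 2.

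Calls among all miRNAs numbered 56, and 27 with a minimum of 50 reads. Calls among pairs numbered 22, and 67 with a minimum of 5 reads, 3 with 30 reads, 14 with DESeq2 and 8 to 17 with 1 library left out. Replicate numbers did not pair the libraries (correlations of deviations 0.029, -0.091 and -0.027 over 40 miRNAs). A replicate block gave -0.84 for miR-320-3p (edgeR, adjusted p = 0.0810) and 0.31 for miR-484, with 49 miRNAs and 13 pairs called. The other alternatives kept the direction and the side of the threshold for both miRNAs. With 10 miR-484 reads in WT, depth limits every statement on that group.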

Other observations

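Few other miRNAs of unusual biogenesis were found among those looked for by name. The mirtron strands miR-877-3p and miR-702-3p had 2 reads each over the 6 libraries. The mirtron miR-1224, miR-1839 and miR-664, which derive from small nucleolar RNAs, and the opposite strand miR-320-5p had 0 reads. miR-451a, which is cut by the Microprocessor but bypasses Dicer, had 0 reads as well. miR-1983, looked at after its values were seen and the other tested miRNA without an arm in its name, had 2, 4 and 2 reads in the WT libraries and 0, 9 and 3 in the HM libraries.

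Across the 6 libraries, log2 shares of all hybrids were compared with those of 39 other miRNAs with at least 50 reads. The miRNA most like miR-320-3p was miR-130b-3p (Pearson r = 0.67), followed by miR-484 (0.58) and miR-92a-3p (0.54). Those most like miR-484 were miR-363-3p (0.97), miR-292a-3p (0.93) and miR-302d-3p (0.89). The points share libraries and totals, fall into 2 genotypes and are a description only.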
